A study of Mus musculus with 9 samples.

Results

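The genes described here are 9 markers of Kupffer cells and of other tissue-resident macrophages, namely Timd4, Folr2, Lyve1, Cbr2, Cd5l, Vsig4, Clec4f, Marco and Spic. They were chosen by name, as genes by which resident macrophages are commonly recognised, out of the 24411 genes in the table. Earlier results of these data were known when they were chosen. The study expanded macrophages of C57BL/6 mice from 3 origins and profiled 3 lines of each by bulk RNA-seq, with 1 library per line. YS lines came from the yolk sac at E9.5, FL lines from the fetal liver at E14.5, and BM lines from the bone marrow of adult mice. All of the lines were genetically unmodified and were kept in M-CSF, the growth factor that macrophages need to survive and divide. A line was the bulk culture of a separate dish or well, started from cells pooled from more than 1 mouse, so the p-values below measure the spread between cultures and not between animals. In bulk cultures, fewer cells that express a gene and less RNA of it per cell cannot be told apart.

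Kupffer cells are the macrophages that line the sinusoids of the liver, where they clear bacteria, dying cells and spent erythrocytes from the blood. Many tissue macrophages are seeded before birth by progenitors that arise in the yolk sac and pass through the fetal liver, and keep themselves afterwards by division, whereas others are replaced from the bone marrow. The markers include receptors that bind dying cells or microbes (TIM4, MARCO and CRIg), a C-type lectin (CLEC4F) and receptors for folate and hyaluronan (FOLR2 and LYVE1). The others are a secreted protein that binds lipids (CD5L), an enzyme (CBR2) and a transcription factor (SPIC). In macrophages, MAF binds DNA through a core motif read as TGCTGA, and LXRα, encoded by Nr1h3, is needed for the identity of Kupffer cells.

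To show the regulatory DNA next to these genes, the 250 bases upstream of the RefSeq start were read for the 8 markers that have a promoter window in the RefSeq table of GRCm38.p6, which gave 9 windows because Folr2 has 2 starts. The motifs searched, on both strands, were GAGGAAGT of PU.1 and SPIC, the MAF core motif TGCTGA, the motif TGACCT of LXR and RXR, the E-box CANNTG and TATAAA. The windows below are those of 4 markers that hold the MAF motif and differ in level between origins or lines, written 5′ to 3′ on the strand of the gene, with matches to TGCTGA or TGACCT, or to their reverse complements, in capitals. The matches do not overlap one another. The window of Timd4 is chr11:46810549-46810798 on the plus strand, that of Folr2 is chr7:101845332-101845581 on the minus strand, that of Cd5l is chr3:87357631-87357880 on the plus strand and that of Spic is chr10:88683024-88683273 on the minus strand.
Timd4: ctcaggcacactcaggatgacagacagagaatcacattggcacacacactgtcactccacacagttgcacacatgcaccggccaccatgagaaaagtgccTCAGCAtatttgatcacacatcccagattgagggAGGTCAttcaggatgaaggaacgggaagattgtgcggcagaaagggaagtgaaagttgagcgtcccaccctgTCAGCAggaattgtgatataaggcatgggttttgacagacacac
Folr2: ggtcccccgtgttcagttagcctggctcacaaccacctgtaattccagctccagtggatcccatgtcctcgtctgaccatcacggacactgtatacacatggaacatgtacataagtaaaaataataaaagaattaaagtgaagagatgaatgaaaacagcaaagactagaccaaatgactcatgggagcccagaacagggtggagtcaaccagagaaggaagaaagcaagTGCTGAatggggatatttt
Cd5l: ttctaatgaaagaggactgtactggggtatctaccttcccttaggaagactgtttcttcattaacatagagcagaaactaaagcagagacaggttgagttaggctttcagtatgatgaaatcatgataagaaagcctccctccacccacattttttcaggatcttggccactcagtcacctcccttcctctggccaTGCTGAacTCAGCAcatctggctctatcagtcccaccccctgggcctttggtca
Spic: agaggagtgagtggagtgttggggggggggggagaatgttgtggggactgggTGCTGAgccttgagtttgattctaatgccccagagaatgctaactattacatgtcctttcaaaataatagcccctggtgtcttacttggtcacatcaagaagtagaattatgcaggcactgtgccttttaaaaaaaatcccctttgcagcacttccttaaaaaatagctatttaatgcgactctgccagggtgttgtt
The MAF motif was found in windows of 5 of the 8 markers (Timd4, Folr2, Cd5l, Clec4f and Spic), and in 6 of the 9 windows. It was absent from the windows of Cbr2, Vsig4 and Marco. The Folr2 window that is not shown holds it as well, 220 bases upstream of its start. Timd4 and Cd5l hold 2 copies each, and those of Cd5l begin 54 and 46 bases upstream of the start. Of all 32851 RefSeq windows of the same length, 16.1% held TGCTGA. The LXR and RXR motif, TGACCT, was found for Timd4 and Clec4f, against 14.0% of all windows. GAGGAAGT and TATAAA were in none of the 9 windows, against 2.44% and 12.4% of all, and the E-box was in 5 of them, against 66.2%. Those of Vsig4 and Marco held no match to any of the 5 motifs. A match is a stretch of letters and was not examined for binding.

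Levels are given as TPM, in which reads are divided by transcript length, so that genes can be compared with each other. FL lines held the highest value of 8 of the 9 markers: FL line 2 of 5, and FL line 3 of 3. BM line 1 held the highest value of the ninth, Spic. The summed TPM of the 9 genes was 509, 3110 and 1260 in FL lines 1, 2 and 3. It was 26.9, 201 and 15.6 in the YS lines and 42.4, 55.4 and 24.9 in the BM lines, so the groups of FL lines and of all other lines did not overlap in this sum. In FL lines, most of the sum came from Cbr2, Marco and Folr2. The markers most often used to define Kupffer cells, Clec4f, Vsig4 and Timd4, were at or near 0 in most lines, and Lyve1 in all of them.

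**Figure D1:**
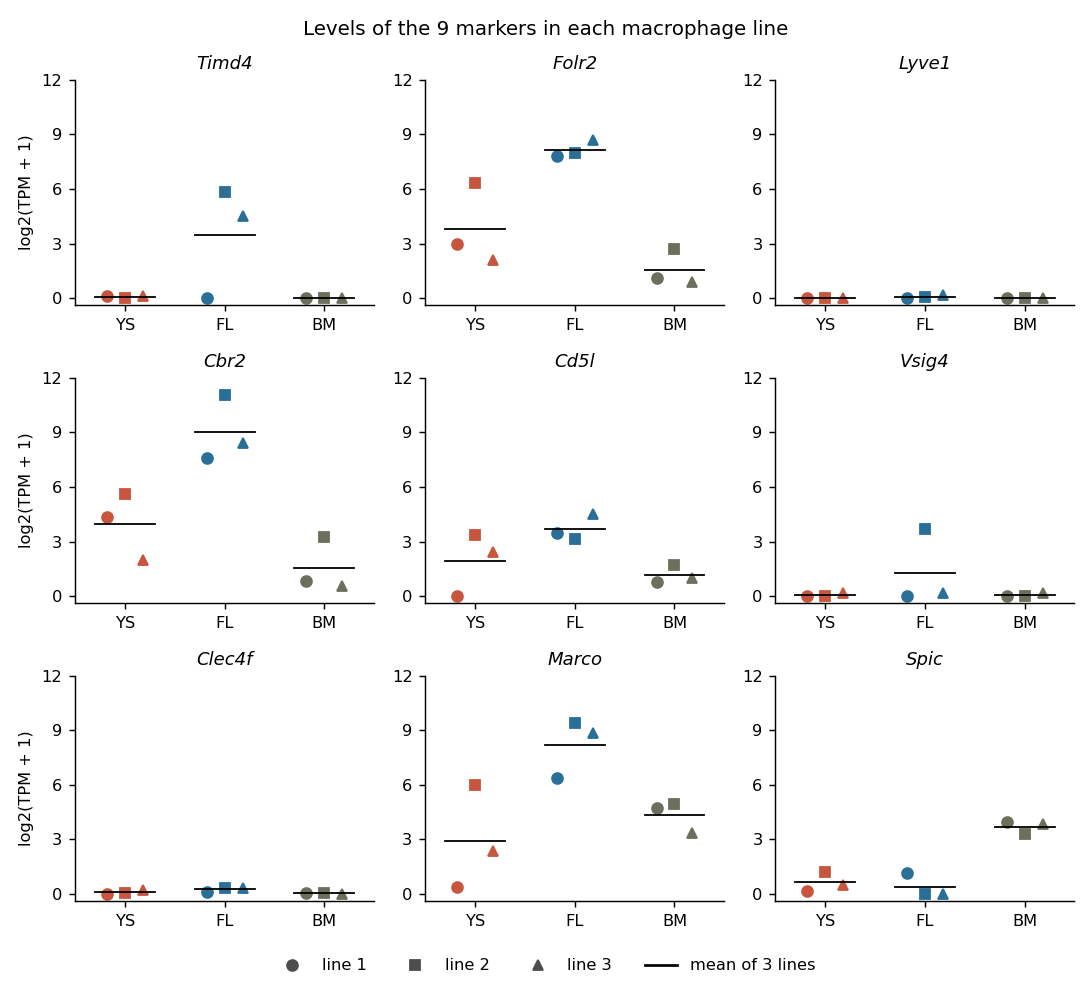
Expression of the 9 markers as log2(TPM + 1) in each line of YS, FL and BM origin, with 1 symbol per line number and a bar at the mean of 3 lines. Folr2, Cbr2 and Marco are highest in FL lines, Spic is highest in BM lines, Timd4 is above 0.08 TPM only in FL lines 2 and 3, and Lyve1 and Clec4f lie near 0 in all 9 lines.

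Timd4 encodes TIM4, a receptor for phosphatidylserine on dying cells that marks long-lived resident macrophages of embryonic origin. It reached 56.4 TPM in FL line 2 and 21.7 TPM in FL line 3, and was listed at 0 in FL line 1. It did not exceed 0.08 TPM in the YS lines and was listed at 0 in all 3 BM lines. The FL lines therefore differed more among themselves than their mean differed from the other origins. The gene did not pass the filter on low values, at least 1 TPM in at least 3 libraries, and so was not among the 11753 genes tested. When it was fitted without the filter, the difference of FL lines from BM lines was 3.45 on the log2(TPM + 1) scale with an SE of 1.27 (limma, adjusted p = 0.13). Its relative Havcr2, which encodes TIM3, was at 73.8 to 112 TPM in YS lines, 148 to 211 TPM in FL lines and 130 to 153 TPM in BM lines, and was lower in YS lines than in FL lines by a log2 difference of -1.07 (SE 0.19, adjusted p = 0.025). The other TIM family genes of the list, Havcr1 and Timd2, were listed at 0 throughout.

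Vsig4 encodes CRIg, the complement receptor by which Kupffer cells take up opsonised bacteria. Its level was 11.95 TPM in FL line 2 and no more than 0.13 TPM in the other 8 lines. Clec4f encodes a C-type lectin that is found on mouse Kupffer cells and few other cells. Its highest value was 0.28 TPM, in FL line 2. Lyve1 encodes a receptor for hyaluronan on resident macrophages near vessels and on lymphatic endothelium. It was above 0 in FL lines 2 and 3 alone, at 0.05 and 0.12 TPM. These 3 genes and Timd4 were the 4 markers that were not tested, and the other 5 passed the filter.

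The tests fitted log2(TPM + 1) of all 9 libraries with limma, and a gene was called where the adjusted p was under 0.1 and the change was more than 2-fold. Between FL and BM lines, 4 of the 5 tested markers were called higher in FL lines (Folr2, Cbr2, Cd5l and Marco), against 6.01% of all genes tested, and Spic was called lower, against 4.30%. None of these 5 overlapped between FL and BM lines, as was the case for 49.5% of all genes. Between YS and FL lines, Folr2, Cbr2 and Marco were called lower in YS lines, against 1.85% of all genes called lower and 1.95% called higher, and these 3 did not overlap, against 26.1% of all genes. Between YS and BM lines only Spic was called, lower in YS lines, against 5.22% of all genes called lower and 7.57% called higher. Spic was also the sole marker whose YS and BM lines did not overlap, against 49.0% of all genes. A marker passed the filter through the lines in which it was high, so these shares describe the markers that could be tested. The comparisons share lines and are not independent of each other. A single gene tested alone, by exact permutation of 3 lines against 3, could reach no two-sided p below 0.1.

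**Figure D2:**
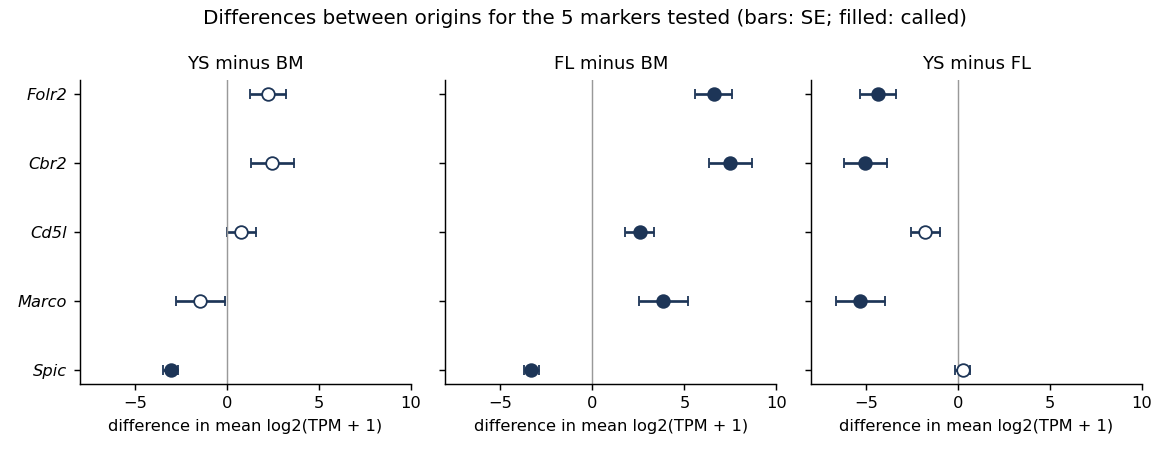
Differences in mean log2(TPM + 1) between origins for the 5 markers tested, with bars of 1 SE and filled points for called differences. All 5 points are filled for FL minus BM, with Spic alone below 0, whereas only Spic is filled for YS minus BM and only Folr2, Cbr2 and Marco for YS minus FL.

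Folr2 encodes a folate receptor of resident macrophages. It reached 223, 247 and 413 TPM in FL lines 1, 2 and 3. The YS lines were at 6.95, 79.7 and 3.26 TPM, and the BM lines were at 1.15, 5.55 and 0.87 TPM. Every FL line was above every YS line, and line 2 was the highest of both the YS and the BM lines. Mean TPM was 294 ± 103 over FL lines, 30.0 ± 43.1 over YS lines and 2.52 ± 2.62 over BM lines (± SD, n = 3 per origin). FL lines exceeded BM lines by 6.58 on the log2 scale (SE 0.98, adjusted p = 0.003), a 117-fold ratio of mean TPM. YS lines were below FL lines by a log2 difference of -4.35 (SE 0.98, adjusted p = 0.049), and mean TPM was 9.82-fold higher in FL lines. Without FL line 2 or FL line 3 this second difference was -4.45 or -4.08 and was not called (adjusted p = 0.12 and 0.14). In a fit of the 6 YS and FL libraries alone it was again -4.35 and was not called (adjusted p = 0.16). The YS and BM lines overlapped, with a log2 difference of 2.23 (SE 0.98, adjusted p = 0.12), which became 3.09 and was called without YS line 3 (adjusted p = 0.046).

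Folr1, the neighbour of Folr2 on the chromosome and also a folate receptor gene, was much lower, at 3.09 to 7.80 TPM in FL lines, 0.34 to 2.87 TPM in YS lines and 0.94 to 4.53 TPM in BM lines, and was not called. None of the stretches of 75 bases, the read length, in the GENCODE transcripts of Folr2 was found in a transcript of another gene. The carrier of reduced folate, Slc19a1, ranged from 5.38 to 23.1 TPM over the 9 lines and was not called either. Folr2 was thus called in comparisons in which neither of these relatives was, and the difference between the genes was not tested. In YS lines against FL lines, Folr1 differed in the direction of Folr2 (-1.40, adjusted p = 0.15) and Slc19a1 in the other (0.60, adjusted p = 0.35). In FL lines against BM lines the same held, at 0.82 and -0.31 (adjusted p = 0.33 and 0.63).

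Cbr2 encodes a carbonyl reductase that marks several resident macrophages. It was at 194, 2112 and 336 TPM in FL lines 1, 2 and 3, and ranked 32nd among all genes in FL line 2, where it was the most abundant marker. In FL line 1 Folr2 was higher, and in FL line 3 both Marco and Folr2 were. The YS lines were at 19.4, 48.7 and 2.91 TPM and the BM lines were at 0.76, 8.34 and 0.46 TPM. FL lines were again above all others, and BM line 2 again stood above BM lines 1 and 3. Mean TPM was 880 ± 1070 over FL lines, 23.7 ± 23.2 over YS lines and 3.19 ± 4.47 over BM lines (± SD, n = 3 per origin). FL lines exceeded BM lines by 7.49 on the log2 scale (SE 1.17, adjusted p = 0.0037), with a 276-fold ratio of mean TPM. YS lines were below FL lines by a log2 difference of -5.03 (SE 1.17, adjusted p = 0.051), with mean TPM 37.2-fold higher in FL lines. This call was lost without FL line 2 or FL line 3, where the differences were -4.02 and -5.34 (adjusted p = 0.14 and 0.13), and in a fit of the 6 YS and FL libraries alone (-5.03, adjusted p = 0.16). Between YS and BM lines the log2 difference was 2.46 (SE 1.17, adjusted p = 0.15), and it was called without BM line 2, at 3.30 (adjusted p = 0.097), or without YS line 3, at 3.46 (adjusted p = 0.057).

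Other carbonyl reductases had patterns of their own. Cbr3 was called higher in YS and FL lines than in BM lines, by 1.52 and 2.07 on the log2 scale (SE 0.42 each, adjusted p = 0.03 and 0.011). Cbr1 was at 57.3 and 40.2 TPM in FL lines 1 and 2 but at 0.44 TPM in FL line 3, while Cbr4 stayed between 14.05 and 25.3 TPM in all lines. Dcxr, a related reductase of sugars, was at 199.6 TPM in FL line 2 and between 21.8 and 58.1 TPM elsewhere. Of the stretches of 75 bases in transcripts of Cbr2, 91.7% were its own and the rest were shared with Gm11771, so a part of the reads of Cbr2 could be assigned to either gene.

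Marco encodes a scavenger receptor with a collagen-like domain that binds bacteria. It was at 80.6, 678 and 464 TPM in FL lines 1, 2 and 3. The YS lines spread from 0.29 TPM in line 1 through 4.14 TPM in line 3 to 61.8 TPM in line 2, and the BM lines were at 25.1, 30.5 and 9.21 TPM. The YS lines thus lay on both sides of the BM lines, and all FL lines were above both. Mean TPM was 408 ± 303 over FL lines, 22.1 ± 34.5 over YS lines and 21.6 ± 11.1 over BM lines (± SD, n = 3 per origin). FL lines exceeded BM lines by 3.86 on the log2 scale (SE 1.33, adjusted p = 0.076), an 18.9-fold ratio of mean TPM. This call was lost when any of FL lines 2 and 3 and BM lines 1, 2 and 3 was left out, with log2 differences of 3.26, 3.53, 4.04, 4.18 and 3.37 in this order and adjusted p from 0.13 to 0.22, and also with a pseudocount of 0.1 (3.93, adjusted p = 0.13) or no filter (3.86, adjusted p = 0.12). YS lines were below FL lines by a log2 difference of -5.31 (SE 1.33, adjusted p = 0.059), which was not called without FL line 2, FL line 3 or BM line 1 (adjusted p = 0.17, 0.17 and 0.10), or with the 6 YS and FL libraries alone (-5.31, adjusted p = 0.18). YS and BM lines differed by -1.44 (SE 1.33, adjusted p = 0.44), and without YS line 2 by -2.98, which was called (adjusted p = 0.064).

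Among the relatives of Marco, Scara3 and Scara5 were near 0 in all lines, at no more than 0.35 and 0.11 TPM. Msr1, which encodes the class A receptor of modified lipoproteins, was at 358 to 559 TPM in YS lines, 658 to 713 TPM in FL lines and 115 to 223 TPM in BM lines. It was called higher than in BM lines in both YS and FL lines, by 1.47 and 2.11 on the log2 scale (SE 0.24 each, adjusted p = 0.0046 and 0.0011). Colec12, a scavenger receptor of the collectin family, was at 253 to 700 TPM in YS lines and 86.9 to 1620 TPM in FL lines. In BM lines 1 and 3 it was at 0.22 and 0.13 TPM, whereas BM line 2 had 86.2 TPM. Both YS and FL lines were called higher than BM lines for this gene (adjusted p = 0.023 and 0.025). Stab1, given below with the hyaluronan receptors, had calls in the same comparisons between FL lines and the other origins as Marco.

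Cd5l encodes a secreted protein of the scavenger receptor cysteine-rich family, also called AIM, which is made by resident macrophages under the control of LXR. It was at 9.95, 7.94 and 22.0 TPM in FL lines 1, 2 and 3. The YS lines were at 0, 9.45 and 4.47 TPM and the BM lines at 0.74, 2.22 and 0.96 TPM. The FL lines did not overlap the BM lines, whereas YS line 2 lay within the FL range. Mean TPM was 13.3 ± 7.62 over FL lines, 4.64 ± 4.73 over YS lines and 1.31 ± 0.799 over BM lines (± SD, n = 3 per origin). FL lines exceeded BM lines by 2.56 on the log2 scale (SE 0.78, adjusted p = 0.051), a 10.2-fold ratio of mean TPM, and the call was lost without FL line 3, BM line 1 or BM line 3 (2.15, 2.38 and 2.47, adjusted p = 0.15, 0.15 and 0.14) or with a pseudocount of 0.1 (3.25, adjusted p = 0.16). YS lines were not called against BM lines (0.79, SE 0.78, adjusted p = 0.47), except without YS line 1, in which Cd5l was listed at 0 (1.77, adjusted p = 0.032). They were not called against FL lines either (-1.77, SE 0.78, adjusted p = 0.2), except without YS line 2 (-2.49, adjusted p = 0.085). The relatives Cd163, which encodes a receptor for haemoglobin, and Cd5 were low, at no more than 0.06 and 2.29 TPM.

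Spic encodes a transcription factor of the PU.1 family that is needed for the macrophages of the splenic red pulp, which recycle iron. It was the one marker that was highest in BM lines, at 14.6, 8.81 and 13.3 TPM in lines 1, 2 and 3. The YS lines were at 0.12, 1.36 and 0.43 TPM, and FL line 1 was at 1.20 TPM while FL lines 2 and 3 were listed at 0. Every BM line was above every YS and FL line. Mean TPM was 12.2 ± 3.03 over BM lines, 0.637 ± 0.645 over YS lines and 0.4 ± 0.693 over FL lines (± SD, n = 3 per origin). YS lines were below BM lines by a log2 difference of -3.06 and FL lines by -3.32 (SE 0.40 each, adjusted p = 0.0023 and 0.0014), with mean TPM 19.2-fold and 30.6-fold higher in BM lines. Both calls held under all 18 alternatives, in which the differences ranged from -4.44 to -1.8 for YS lines and from -5.68 to -1.88 for FL lines. YS and FL lines were not called (0.26, SE 0.40, adjusted p = 0.7). Spi1, which encodes PU.1, was between 364 and 456 TPM in all lines and was not called, and Spib did not exceed 0.62 TPM. Of the stretches of 75 bases in transcripts of Spic, 98.9% were found in no other gene.

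**Figure D3:**
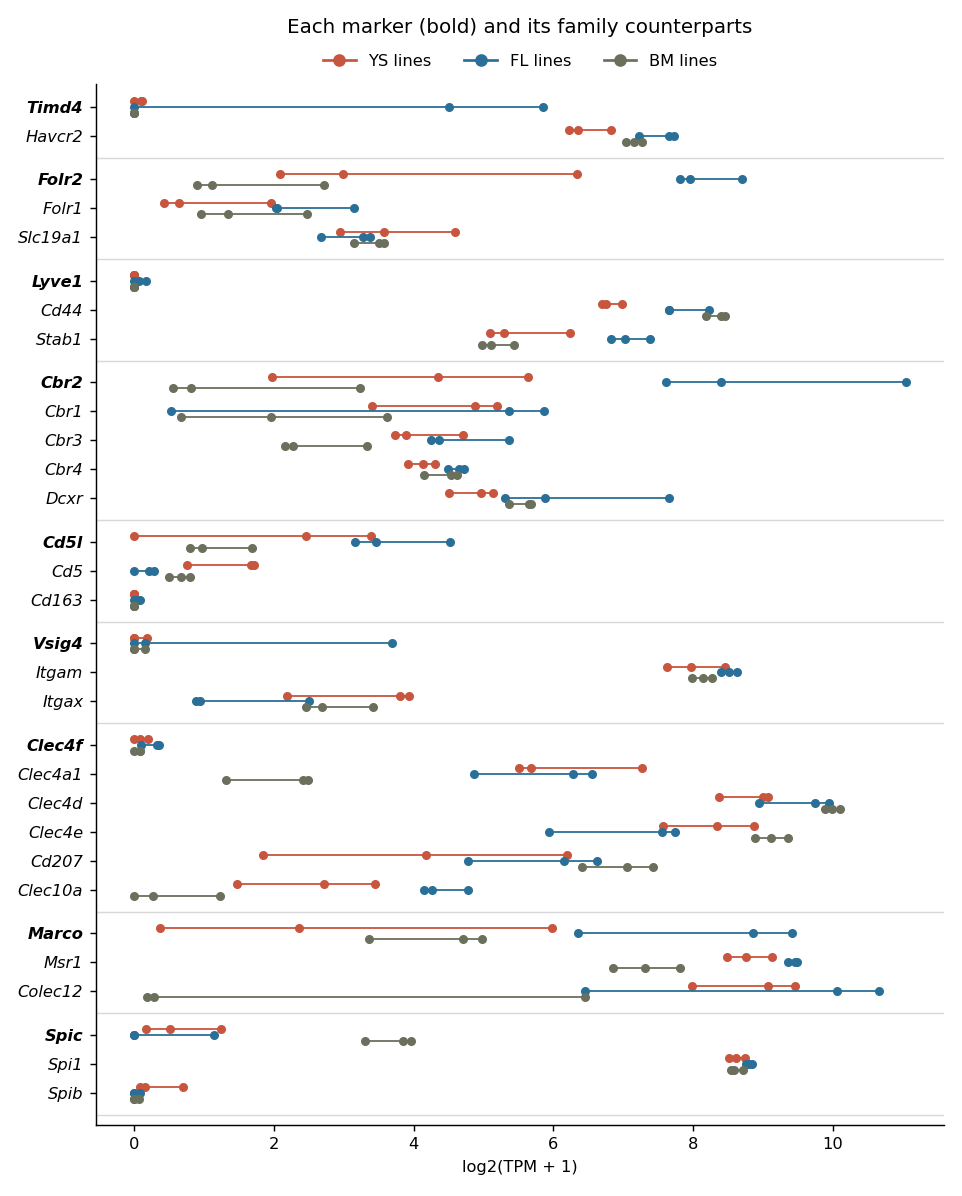
Levels of each marker, in bold, and of relatives in family or ligand, as log2(TPM + 1), with 1 point per line, 3 lines per origin and a bar from the lowest to the highest line. Relatives such as Havcr2, Cd44, Itgam, Msr1 and Spi1 lie above 6 in every line, whereas the markers Lyve1 and Clec4f stay near 0.

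Some relatives of Lyve1, Vsig4 and Clec4f were abundant and others, such as Stab2, Asgr1, Asgr2 and Mgl2, did not exceed 1.67 TPM in any line. In all, 11 of the 37 relatives of the markers were under 1 TPM in every line. Cd44, the widely expressed receptor for hyaluronan, was at 103 to 125 TPM in YS lines, 199.9 to 298 TPM in FL lines and 288 to 351 TPM in BM lines, and was called lower in YS lines than in BM lines and FL lines, by log2 differences of -1.54 and -1.04 (SE 0.17 each, adjusted p = 0.0014 and 0.023). Stab1, a scavenger and hyaluronan-binding receptor, was at 112 to 166 TPM in FL lines against 30.6 to 42.2 TPM in BM lines (1.90, SE 0.29, adjusted p = 0.0033), and was called lower in YS lines than in FL lines (-1.54, SE 0.29, adjusted p = 0.032). Itgam, which encodes a subunit of the complement receptor that Vsig4 shares a ligand with, was at 196 to 394 TPM in all lines. Among the C-type lectins, Clec4a1, Clec4a3 and Clec10a were called higher in YS and FL lines than in BM lines. The log2 differences of Clec4a1 and Clec4a3 were from 3.83 to 4.54 (adjusted p from 0.003 to 0.0088). Those of Clec10a were 2.04 in YS lines and 3.90 in FL lines (SE 0.51 each, adjusted p = 0.02 and 0.0017). Clec10a was also called lower in YS lines than in FL lines (-1.86, SE 0.51, adjusted p = 0.069). Clec4e, a receptor for mycobacterial glycolipid, was lower in FL lines than in BM lines (-2.05, SE 0.48, adjusted p = 0.02). Cd207, which encodes langerin, was at 84.0 to 171 TPM in BM lines and at 2.58, 72.1 and 17.0 TPM in YS lines (-2.89, SE 0.96, adjusted p = 0.054), a call that was lost without BM line 2 (-2.85, adjusted p = 0.12). Of the 37 relatives in the list, 24 were tested. Against BM lines, YS lines had 6 calls upward and 3 downward, beside 7.57% and 5.22% of all genes. FL lines had 7 upward and 1 downward, beside 6.01% and 4.30%. The medians were -0.05 and 0.38 against 0.11 and 0.09 over all genes tested. Between YS and FL lines, 1 was higher and 4 were lower in YS lines, beside 1.95% and 1.85% of all genes. The median was -0.52 against 0.02.

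The regulators of Kupffer cells and resident macrophages were measured in a list of 19 genes, of which 17 were tested. Maf was at 188 to 286 TPM in YS lines, 241 to 407 TPM in FL lines and 17.4 to 51.4 TPM in BM lines. It was called higher than in BM lines in YS and FL lines by 2.97 and 3.41 on the log2 scale (SE 0.37 each, adjusted p = 0.002 and 0.00099). Irf8 was called higher in YS and FL lines than in BM lines (1.54 and 1.11, SE 0.26 each, adjusted p = 0.0048 and 0.018), and Pparg was called lower (-2.57 and -2.38, SE 0.73 each, adjusted p = 0.032 and 0.052), in FL lines not without BM line 2 (-2.32, adjusted p = 0.13). Runx3 was called higher in YS lines than in BM lines (3.64, SE 0.59, adjusted p = 0.0044). Id1, an inhibitor of basic helix-loop-helix factors, was called higher in FL lines than in BM lines (1.12, SE 0.22, adjusted p = 0.01). So was Rxra, at 50.6 to 67.6 TPM against 24.9 to 30.3 TPM (1.12, SE 0.30, adjusted p = 0.031). Rxra was not called between YS and BM lines (0.52, SE 0.30, adjusted p = 0.21). Nr1h3 did not exceed 1.56 TPM and was not tested, whereas Nr1h2, which encodes LXRβ, was between 68.2 and 110 TPM. In all, YS lines had 3 regulators called above BM lines and 1 below, beside 7.57% and 5.22% of all genes. FL lines had 4 above and 1 below, beside 6.01% and 4.30%. The medians were 0.15 and 0.26 against 0.11 and 0.09 over all genes tested. Between YS and FL lines, 1 was called in each direction, beside 1.95% of all genes higher and 1.85% lower in YS lines. The median was -0.19 against 0.02.

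Of 16 targets of LXR, 10 were tested. In YS lines against BM lines, Apoe was called higher (1.07, SE 0.21, adjusted p = 0.0092) and Smpdl3a lower, and in FL lines Smpdl3a and Mertk were called higher. Smpdl3a, which encodes a phosphodiesterase, did not exceed 0.10 TPM in the YS lines, against 277 to 621 TPM in FL lines and 166 to 243 TPM in BM lines (YS minus FL -8.57, SE 0.27, adjusted p = 1.7e-06). The medians of the 10 genes were 0.35, 0.27 and 0.17 for YS against BM, FL against BM and YS against FL lines. Over all genes tested they were 0.11, 0.09 and 0.02. In the same order, 12.8%, 10.3% and 3.79% of all genes tested were called in either direction.

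A list of 31 further gene symbols of resident macrophages was described in the same way, of which 30 were in the table and 21 were tested. The symbol not in the table, Selenop, names the same gene as Sepp1, which was tested. Against BM lines, 12 were called in YS lines and 13 in FL lines, each of them higher, against 7.57% and 6.01% of all genes called higher, with medians of 1.80 and 1.99 against 0.11 and 0.09 over all genes tested. Mrc1, the mannose receptor gene, was at 268 to 411 TPM in YS lines and 447 to 567 TPM in FL lines, whereas BM lines 1, 2 and 3 had 0, 40.2 and 0.06 TPM. Its log2 differences were 6.48 and 7.20 (SE 1.22 each, adjusted p = 0.0076 and 0.005). Trf, which encodes transferrin, Gas6, a ligand that bridges dying cells to TAM receptors, and the complement genes C1qa, C1qb and C1qc were called higher in both. The TAM receptors themselves were split, since Axl was called in YS lines (4.10, SE 0.49, adjusted p = 0.0018) and Mertk in FL lines (1.99, SE 0.35, adjusted p = 0.0059). Between YS and FL lines, Axl was higher in YS lines, and Fcna, Hmox1, Mertk and Stab1 were lower. Beside these, 1.95% of all genes were called higher and 1.85% lower. The median was -0.72 over the list, against 0.02 over all genes tested. The call of Hmox1 was lost without BM line 2 (-1.48, adjusted p = 0.11). Mertk and Stab1 were thus called higher in FL lines than in both other origins, as Folr2, Cbr2 and Marco were. Others of the list, such as Cd163, Cd209b, C6 and Vcam1, were at or near 0 in all lines, like Clec4f and Lyve1.

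**Figure D4:**
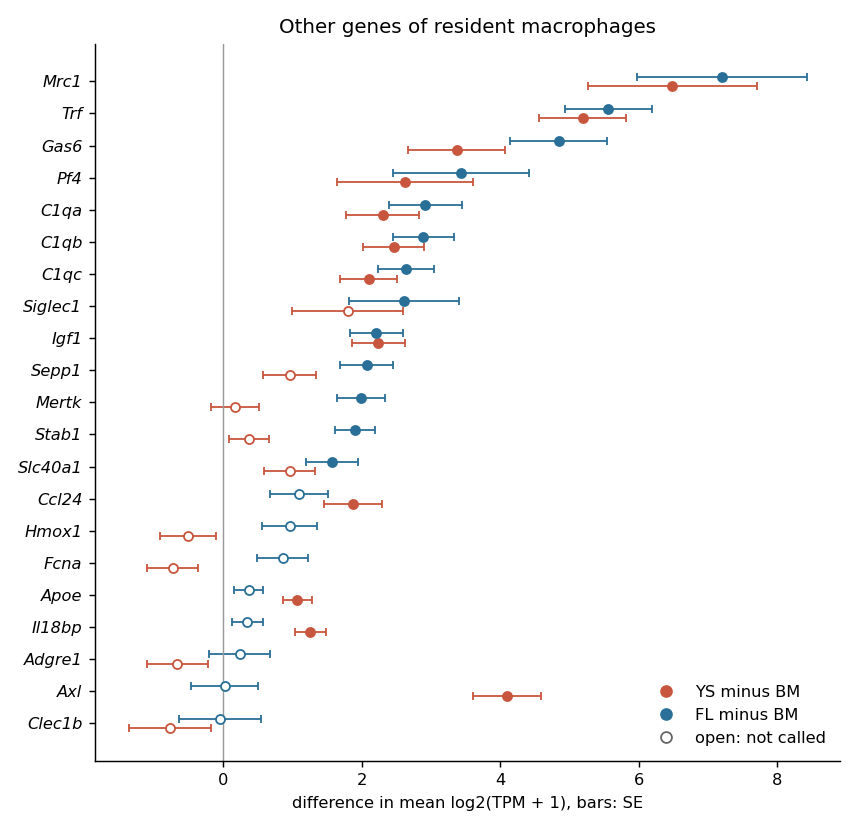
Differences in mean log2(TPM + 1) from BM lines of the 21 tested genes of the resident macrophage list, for YS lines and FL lines, with bars of 1 SE and open points for differences not called. Mrc1 and Trf have the largest differences in both origins, and Axl is called in YS lines alone. Both sets of differences use the same BM lines.

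Of the macrophage markers, Csf1r and Cd68 were abundant in all lines, while Fcgr1 and Aif1 were lower in BM lines than in the others. Csf1r, which encodes the M-CSF receptor, was between 1086 and 2441 TPM, and the summed TPM of 9 macrophage markers was 4240 to 9290 in YS lines, 11700 to 28300 in FL lines and 11400 to 13200 in BM lines. Lyz2 was the largest part of this sum in every line. It was at 1163 to 3531 TPM in YS lines, 5806 to 21976 TPM in FL lines and 5986 to 7841 TPM in BM lines. Its highest value was in FL line 2, the line with the highest Cbr2, Marco, Timd4 and Vsig4. Lyz2 was called lower in YS lines than in FL and BM lines (-2.37 and -1.6, adjusted p = 0.048 and 0.054). The call against BM lines was lost without BM line 2 (-1.52, adjusted p = 0.13). Fcgr1 was at 1.68 to 42.1 TPM in BM lines and was called higher in YS and FL lines (4.65 and 4.02, adjusted p = 0.0076 and 0.014). Aif1 was at 6.53 to 23.5 TPM in BM lines and was likewise called higher (3.16 and 3.15, adjusted p = 0.003 and 0.0026). Lyve1 and the endothelial markers Emcn and Tek were at or near 0. Other endothelial markers were not, and Flt4, Pecam1 and Prox1 did not pass the filter. In YS lines 1, 2 and 3, Flt4 was at 0.82, 0.23 and 16.9 TPM, against no more than 0.18 TPM elsewhere. Pecam1 was at 4.91, 8.17 and 0.29 TPM, against no more than 0.56 TPM elsewhere. Prox1 was at 2.71, 1.34 and 0 TPM, against no more than 0.44 TPM elsewhere. The 10 endothelial markers summed to 20.1 to 104 TPM in YS lines, 23.1 to 95.8 TPM in FL lines and 40.2 to 45.2 TPM in BM lines. Kdr or Vwf was the largest in most lines. Single endothelial markers moved with origin: Kdr was called higher than in BM lines in FL lines (4.35, adjusted p = 0.032) and YS lines (3.07, adjusted p = 0.081), Cdh5 in FL lines (1.10, adjusted p = 0.037) and Egfl7 in YS lines (2.85, adjusted p = 0.011), while Vwf was called lower in YS lines. Their part in the levels of the markers was not tested. Of the 8 hepatocyte markers, Alb did not exceed 0.21 TPM, and Serpina1a and Fgb were at 0, while Afp was at 8.84 to 20.5 TPM in FL lines, 1.03 to 6.44 TPM in YS lines and 2.95 to 12.2 TPM in BM lines, and Apoa2 was called lower in FL lines than in BM lines. The sum of the list was 70.2 to 128 TPM in YS lines, 114 to 129 TPM in FL lines and 5.57 to 16.7 TPM in BM lines, in YS and FL lines mostly from Trf, which macrophages also express. The monocyte and dendritic cell list summed to 13.5 to 27.8 TPM in YS lines, 6.28 to 9.58 TPM in FL lines and 7.90 to 12.6 TPM in BM lines, with Flt3 at 0. Of its genes, Ccr2 and Zbtb46 were called higher in YS lines than in BM lines (1.38 and 1.05, adjusted p = 0.068 and 0.028), and Itgax was called higher in YS lines than in FL lines. Without BM line 2, the calls of Kdr and Ccr2 in YS lines (3.34 and 1.46, adjusted p = 0.12 each), of Vwf (-2.35, adjusted p = 0.13) and of Itgax (1.86, adjusted p = 0.14) were lost. No fibroblast marker exceeded 0.44 TPM.

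BM line 2 stood above BM lines 1 and 3 for Folr2, Cbr2, Cd5l and Marco, and YS line 2 stood above the other YS lines for these markers and Spic. Relative to the mean of BM lines 1 and 3, BM line 2 was at 5.5-fold for Folr2, 13.7-fold for Cbr2, 2.61-fold for Cd5l and 1.77-fold for Marco, and at 0.632-fold for Spic. Its levels were 6.96% of those of YS line 2 for Folr2, 17.1% for Cbr2, 23.5% for Cd5l and 49.3% for Marco. Over the 45 genes that reached 20 TPM in YS line 2 but stayed under 0.5 TPM in both BM line 1 and BM line 3, the median of this share was 14.1%. Markers of erythroid cells summed to 375 TPM in BM line 2, mainly from Hba-a1 and Hba-a2, against no more than 14.9 TPM in any other line. Hbb-y was at 43.0 TPM in BM line 2 and at no more than 0.27 TPM elsewhere. Hbb-bt was at 12.55 TPM in BM line 2 and at 0 elsewhere, and Hbb-bs was at 0 in all lines. The part of these transcripts in the levels of the markers, and whether RNA or reads of other samples had entered BM line 2, was not tested, so the BM means and the folds against them hold with that limit. Without BM line 2, FL lines exceeded BM lines by 7.15 for Folr2 (adjusted p = 0.006) and 8.34 for Cbr2 (adjusted p = 0.0054), and 4 of the 5 tested markers were still called, without Marco.

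**Figure D5:**
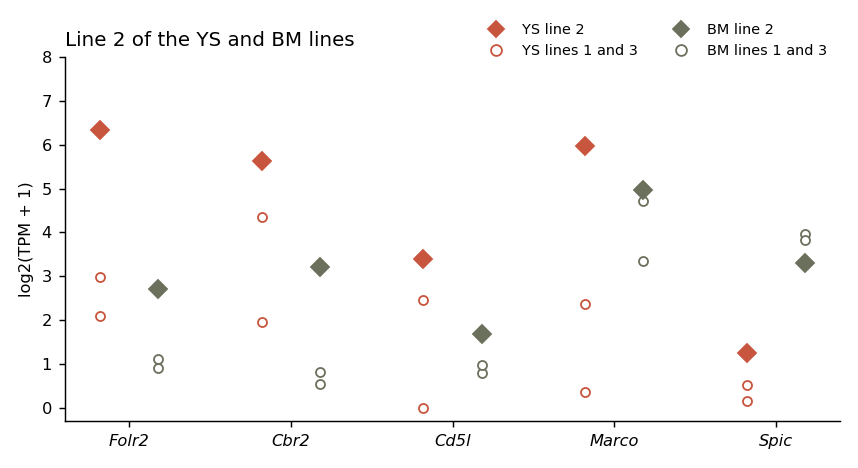
Levels of the 5 tested markers as log2(TPM + 1) in YS and BM lines, with line 2 of each origin as filled diamonds and lines 1 and 3 as open circles. Line 2 is the highest YS line for all 5 markers and the highest BM line for all but Spic, for which it is the lowest BM line.

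The tested markers were also compared with each other over the 9 lines, which share their 3 origins, so that the values are descriptions. On the log2 scale, Folr2 and Cbr2 were most alike, at r = 0.95 (Pearson) and rho = 0.98 (Spearman), and r was 0.67 after the mean of each origin was taken off. Cd5l and Cbr2 had an r of 0.71 over the 9 lines but of 0.06 within origins. Folr2 and Marco had 0.79 and, within origins, 0.75. Spic had an r of -0.68 with Folr2 and of -0.73 with Cbr2, and within origins of 0.23 and -0.28. Outside the markers, the tested genes with the most similar pattern over the 9 lines were Cotl1, Epb4.1l2 and Dcbld1 for Folr2 (r from 0.969 to 0.975), Wash1, Zfyve16 and Dlgap4 for Cbr2 (0.981 to 0.984), Psd4, Stim1 and Ube2r2 for Cd5l (0.958 to 0.981), Txndc17, Cdk20 and Dynlt3 for Marco (0.977 to 0.985), and 2410127L17Rik, Src and Pcgf6 for Spic (0.99 to 0.992). These genes spanned narrower ranges than the markers. Cotl1, which encodes an actin-binding protein, was at 499 to 1327 TPM over the lines in which Folr2 went from 0.87 to 413 TPM, and Src, a tyrosine kinase gene, was at 5.17 to 7.09 TPM in BM lines and at no more than 0.81 TPM elsewhere.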

How the data were processed

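RNA was extracted from 9 macrophage lines, and poly(A)-selected, directional libraries were sequenced as single reads. The authors deposited TPM for 24411 gene symbols, and the submitters' processing notes list Trim Galore 0.6.6, STAR 2.7.9a and RSEM 1.3.3. The genome build and annotation behind the table are not given in the sources used here. TPM keeps no read number, so depth is unknown and no counting error is given. Between 10977 and 11457 genes reached 1 TPM in a library. Lines were grouped by their sample titles.

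Values were used as log2(TPM + 1), which understates the change of low genes. Genes that reached 1 TPM in 3 or more libraries (11753) were fitted with limma 3.58.1 in R 4.3.3 (all 9 libraries, intensity trend, Benjamini-Hochberg adjustment within each of 3 comparisons), a step tested on simulated data. All adjusted p-values come from limma. The markers and gene lists were chosen with earlier results of these data known. Named genes were the 9 markers, their relatives, up to 4 called genes per list and comparison by size of difference, and the 3 most similar genes of each tested marker. Others, such as list members at or near 0, were named after their values were seen. Promoter windows came from RefSeq, and stretches of 75 bases from GENCODE M21. Alternatives changed the pseudocount, filter, scaling, variance trend, libraries, replicate block and lines. Some withheld items are not reported here.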

Additional observations from a re-analysis of the deposited data

How the results depend on the processing

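Each count of called markers was recomputed under 18 alternatives, and no called marker changed direction. Between YS and BM lines, where 1 marker was called, the replicate block gave 3 (Cbr2, Folr2 and Spic), and leaving out 1 line gave 1 to 3. Between FL and BM lines, where 5 were called, a pseudocount of 0.1 gave 3 (Cbr2, Folr2 and Spic), no filter gave 4, and leaving out 1 line gave 3 to 5. Between YS and FL lines, where 3 were called, a limma fit of only the 6 libraries of the comparison gave 0, with 3 at an unadjusted p under 0.05, and leaving out 1 line gave 0 to 4, the 0 being without FL line 2 or FL line 3, with 3 at an unadjusted p under 0.05 in each. The causes were not tested.

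Over all genes, the 446 calls between YS and FL lines became 280 with a pseudocount of 4, 81 with only the 6 libraries, 199 and 191 without FL line 2 and FL line 3, and 282 and 292 without BM line 1 and BM line 3. Quantile normalization and median-of-ratios scaling changed the split of calls between YS and BM lines from 890 higher and 614 lower to 724 and 763, and to 765 and 741, and that between FL and BM lines from 706 and 505 to 592 and 593, and to 623 and 583. These scalings moved the median log2 difference over all genes between YS and BM lines from 0.11 to -0.01 and 0, and called the same markers as before in each comparison. Same-numbered lines of different origins had correlations of their deviations from -0.118 to 0.088, and 2 of 9 lines were most similar to a line of their own number, so the numbers were not taken as pairs. TPM carries no depth, so values near 0 have no counting error, and 3 lines per origin limit the precision.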
